A study of Homo sapiens with 12 samples.

Results

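Transcript levels of 10 hematopoietic growth factor receptor genes were examined in MOLM-13 cells, an established human AML line (AML, acute myeloid leukemia) that carries a fusion of KMT2A (MLL) with AF9 and an internal tandem duplication of FLT3. The genes were FLT3, KIT, CSF1R, CSF2RA, CSF2RB, CSF3R, IL3RA, IL7R, IL2RG and IL6R, taken by symbol from a table of 46639 gene symbols, with all transcript rows of a symbol summed. They were found by name, with no level used, though the set was put together with earlier results of these data known. RNA was measured in 12 libraries of 4 groups. The untreated group received neither drug and is labelled 96 h. The DAC group received 100 nM decitabine, a nucleoside that inhibits DNA methyltransferases, the ATRA group received 1 µM all-trans retinoic acid, the ligand of the retinoic acid receptors, and the DAC+ATRA group received both, all labelled 72 h. Treatment lasted 3 days with DAC given anew each day. The study's methods describe ATRA as added with the last DAC dose, a shorter exposure than the labels give. The study's methods give 72 h as the RNA-seq harvest, against the 96 h of the untreated label, and this conflict was not resolved. Time in culture and treatment cannot be told apart where the labels differ, and no vehicle control was among the libraries. Per the labels, cells of every group grew with 20% FCS and 5 ng/ml human GM-CSF, the ligand of the receptor formed by CSF2RA and CSF2RB. The study's supplemental methods differ, giving 10% FCS for its cell lines and naming no GM-CSF. The counts do not show whether a FLT3 read came from the duplicated or the normal allele.

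FLT3, KIT and CSF1R are receptor tyrosine kinases of one structural class, which dimerise on binding FLT3 ligand, stem cell factor, or CSF1 and IL-34. The other members have no kinase of their own and signal through JAK kinases and STAT factors. CSF2RA and IL3RA bind GM-CSF and IL-3 and share the beta chain CSF2RB. CSF3R binds G-CSF, IL6R binds IL-6 and works with IL6ST, and IL7R pairs with the common gamma chain IL2RG. FLT3 and KIT are known from stem and progenitor cells and as oncogenes in myeloid leukemia, whereas CSF1R and CSF3R are known for monocytic and granulocytic development.

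Depth ran from 8.95 to 11.9 M reads (M, mega) without treatment, 4.67 to 6.95 M after DAC, 8.36 to 10.7 M after ATRA and 5.61 to 7.16 M after both drugs. The values are normalised counts, which are reads divided by a size factor of each library. The design text of the series calls the libraries technical triplicates, so p-values measure the spread within 1 experiment. DAC replicate 3 stood apart from the other DAC libraries, with 4.84% of its reads in the non-coding RNA RN7SL1 against 10.5% and 10.2%. Shares also differed within other groups. Untreated replicate 3 had 11.2% against 6.36% and 6.22%, and ATRA replicate 1 had 7.84% against 12.4% and 12.8%. Of 9 myeloid markers, 6 reached a mean of 10 normalised counts in untreated cells, including CD33, MPO, LYZ, SPI1 and CEBPA, and CD68 was listed at 0 in all 12 libraries. All of HOXA9, HOXA10 and MEIS1, genes typical of KMT2A-rearranged leukemia, passed that level. The defining markers CD3E and CD8A of T cells, MS4A1 of B cells and PF4 of megakaryocytes held 0 to 2 reads in any library. Other markers of those lists did have reads: group means of CD4, which monocytic cells also express, ran from 2957 to 3964 normalised counts and those of NKG7, a marker of NK cells, from 452 to 1132, while CD3D, CD79A and ITGA2B reached 28, 39 and 41 reads in a library. The summed level of the myeloid markers differed between groups, at 54052 to 62061 normalised counts without treatment, 172651 to 211146 after DAC, 13322 to 17104 after ATRA and 59734 to 63612 after both. In these counts LYZ made up the largest part of that sum, with means of 41628, 153287, 6819 and 40819 in the same order. As counts are lower limits, this does not rank the expression of the markers. CD33, ITGAM and SPI1 were at 372, 9.58 and 341 without treatment and at 549, 57.3 and 403 after ATRA. MPO and CEBPA were lower after ATRA, as LYZ was, at 805 and 6063 against 1513 and 15377. CD14 and AZU1, with few reads, were also lower, at 2.23 and 1.14 against 10.6 and 1.90. The sum thus does not give the direction of each marker. The part of these markers in the receptor results was not tested.

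The stretches before the transcription starts of KIT and FLT3 are shown because these genes had the largest rise and the largest fall with ATRA among the receptor genes. Both come from RefSeq on GRCh38.p14 and end before the first exon base that GENCODE lists in the window, and capitals mark CpG dinucleotides, the sites of DNA methylation. The KIT stretch, chr4:54657707-54657888 on the plus strand, has 182 bases with 25 CpG, and the FLT3 stretch, chr13:28100593-28100826 on the minus strand, has 234 bases with 24 CpG. The KIT stretch lies inside the KIT gene span given with its levels, because 1 GENCODE transcript starts further upstream and has its first intron here.
KIT: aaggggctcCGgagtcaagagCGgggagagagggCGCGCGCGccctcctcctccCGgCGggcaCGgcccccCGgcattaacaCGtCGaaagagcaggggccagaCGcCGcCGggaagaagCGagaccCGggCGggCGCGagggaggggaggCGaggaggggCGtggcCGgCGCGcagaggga
FLT3: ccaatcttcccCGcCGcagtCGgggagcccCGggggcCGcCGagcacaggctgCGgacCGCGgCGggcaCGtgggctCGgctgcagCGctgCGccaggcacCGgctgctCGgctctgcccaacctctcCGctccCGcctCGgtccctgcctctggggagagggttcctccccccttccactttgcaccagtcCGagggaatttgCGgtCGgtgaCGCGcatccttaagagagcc

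Over the full 250 bases before the start, KIT had 34 CpG and FLT3 had 26, against a median of 11 in 35116 such windows. Of all windows, 6.84% held at least as many CpG as KIT and 19.6% at least as many as FLT3. IL6R had 22 CpG in its window, whereas the 2 starts of CSF1R had 2 and 6, those of CSF3R had 8 and 3, and IL7R had 0. RefSeq windows were at hand for 9 of the 10 members, without CSF2RB. The letters AGGTCA, a half-site of the retinoic acid receptor element, were searched on both strands and occurred in 2 of 11 member windows, those of CSF2RA and IL7R, and in 12.1% of all windows. Methylation and factor binding were not measured in these libraries.

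Of the 10 members, 7 reached 10 normalised counts in 3 or more libraries, the filter on low values, and were tested with limma among 10642 protein-coding genes, with a gene called at a Benjamini-Hochberg adjusted p under 0.01. With DAC, 0 of the 7 were called higher and 2 lower (FLT3 and IL7R). An unadjusted limma p under 0.05 was reached by 5 of the 7 and by 3059 of the 10642 genes tested. Of all genes tested in this comparison, 4.29% were called higher and 3.67% lower. With ATRA, KIT and CSF2RB were called higher and FLT3 lower, against 12.1% and 14% of all genes. With DAC+ATRA, KIT, CSF2RB and IL6R were called higher and FLT3 and IL7R lower, against 14.5% and 14.4% of all genes. An unadjusted limma p under 0.05 was reached by 4 members and 4736 genes with ATRA, and by 6 members and 5085 genes with DAC+ATRA.

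**Figure D1:**
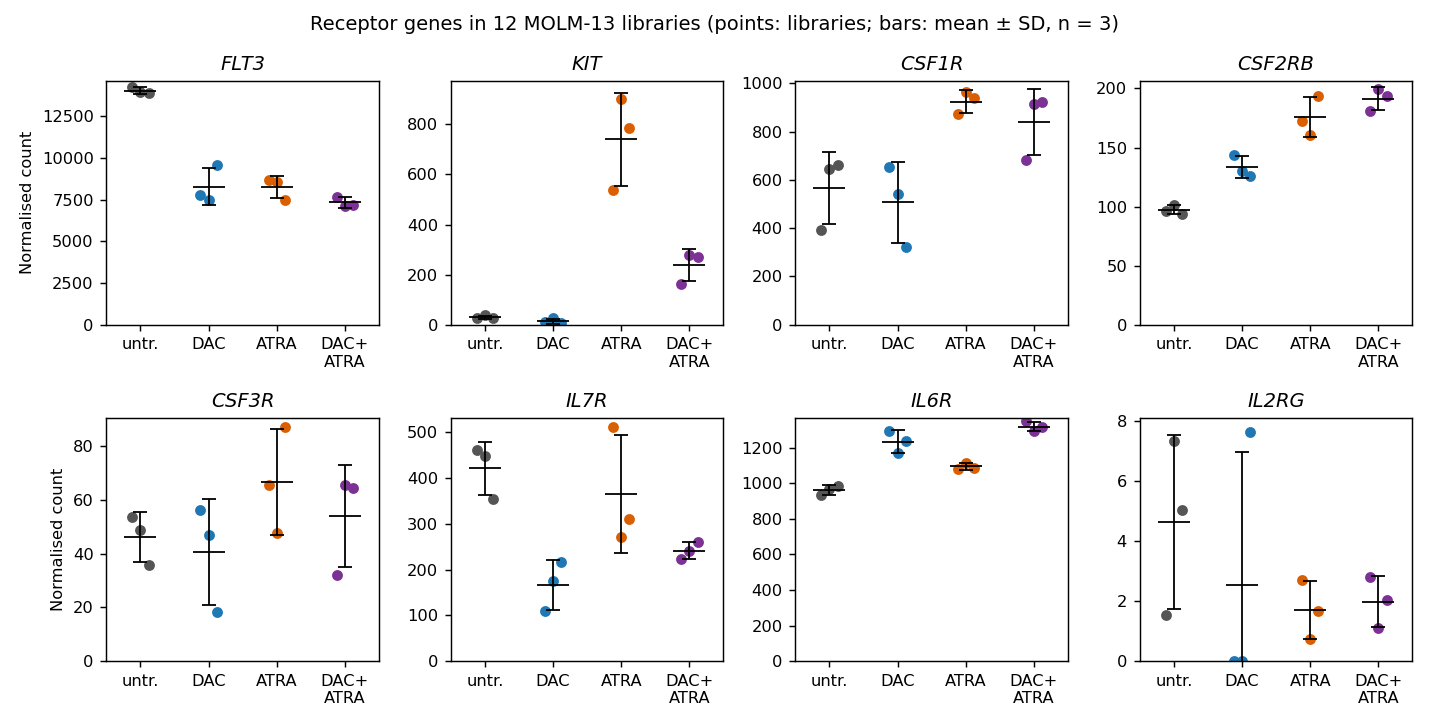
Normalised counts (linear axes from 0) of the 8 receptor genes with reads, with each point a library and bars giving mean ± SD (n = 3); the lower SD bar of IL2RG in DAC runs below 0 and is cut at the axis. The untreated FLT3 libraries, at 13871 to 14247, lie above all 9 treated libraries, and the KIT libraries lie at 24.9 to 37.3 without treatment and at 536 to 900 after ATRA.

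KIT, the receptor of stem cell factor, lies at chr4:54657267-54740783 and had 1 listed transcript row. Its 3 untreated libraries held 24.9, 37.3 and 26.3 normalised counts, and the DAC libraries held 11.4, 25.1 and 6.53. The ATRA libraries held 536, 900 and 786, and the DAC+ATRA libraries held 164, 277 and 271. All libraries with ATRA were above all libraries without it, and those with ATRA alone were above those with both drugs. Group means were 29.5 ± 6.81 (SD, n = 3) without treatment, 14.4 ± 9.62 after DAC, 740 ± 186 after ATRA and 237 ± 63.6 after both. KIT rose 24.1-fold with ATRA (log2 fold change 4.59, SE 0.34, limma adjusted p = 2.26e-09) and 7.71-fold with DAC+ATRA (2.95, SE 0.34, limma adjusted p = 1.12e-06). These folds are on the log2(normalised count + 1) scale, which understates the change of low genes. In bulk RNA, fewer cells with a transcript and less of it per cell cannot be told apart.

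KIT was the member with the widest changes between the treated groups. Against DAC alone, DAC+ATRA raised KIT 17.2-fold (log2 fold change 4.10, SE 0.34, limma adjusted p = 1.61e-08). Against ATRA alone, DAC+ATRA was 3.13-fold lower, with a log2 fold change of -1.64 (limma adjusted p = 0.00167). That call was lost without ATRA replicate 2 (adjusted p = 0.0163), without ATRA replicate 3 (0.0115) or without DAC+ATRA replicate 1 (0.0166). The DAC libraries rest on 9, 16 and 6 KIT reads, and 1 of them overlapped the untreated libraries. The log2 difference from untreated was -1.16 (95% interval -1.87 to -0.45, limma adjusted p = 0.0250) and was not called. Without DAC replicate 2 it was -1.63 with an adjusted p of 0.00107. The DAC effect on KIT with ATRA minus that without it, the interaction, was -0.49 (95% interval -1.49 to 0.52).

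FLT3, the receptor of FLT3 ligand, lies at chr13:28003274-28100592 and also had 1 listed row, with 4778 to 22112 reads per library. Its level was 14247, 13963 and 13871 normalised counts in untreated and 7791, 7493 and 9559 in DAC libraries. It was 8700, 8549 and 7479 in ATRA and 7681, 7130 and 7173 in DAC+ATRA libraries. The untreated libraries lay above all treated ones, while the 3 treated groups overlapped one another. Means were 14027 ± 196 (SD, n = 3) without treatment, 8281 ± 1117 after DAC, 8243 ± 666 after ATRA and 7328 ± 306 after both. FLT3 was 1.70-fold lower with DAC (log2 fold change -0.77, SE 0.11, limma adjusted p = 4.43e-05), 1.71-fold lower with ATRA (-0.77, adjusted p = 9.35e-06) and 1.92-fold lower with both (-0.94, adjusted p = 8.59e-07). These 3 comparisons share the untreated libraries.

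FLT3 in DAC+ATRA differed by -0.17 on the log2 scale from DAC alone (95% interval -0.39 to 0.05) and by -0.17 from ATRA alone (-0.39 to 0.05), and neither was called. The DAC effect on FLT3 was thus -0.77 without ATRA and -0.17 with it. The interaction was 0.60 (95% interval 0.29 to 0.91, limma adjusted p = 0.0278) and was not called at 0.01. It was called by DESeq2 on the recovered reads (0.56, adjusted p = 0.00727) and, with DAC replicate 3 left out, by limma (0.71, adjusted p = 0.00141), the DAC library with the highest FLT3 level. In all, 0 of 7 members were called in the interaction by limma, while 0.724% of all genes were called positive and 0.874% negative. An unadjusted limma p under 0.05 for the interaction was reached by 2 members and by 1570 of the 10642 genes tested.

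**Figure D2:**
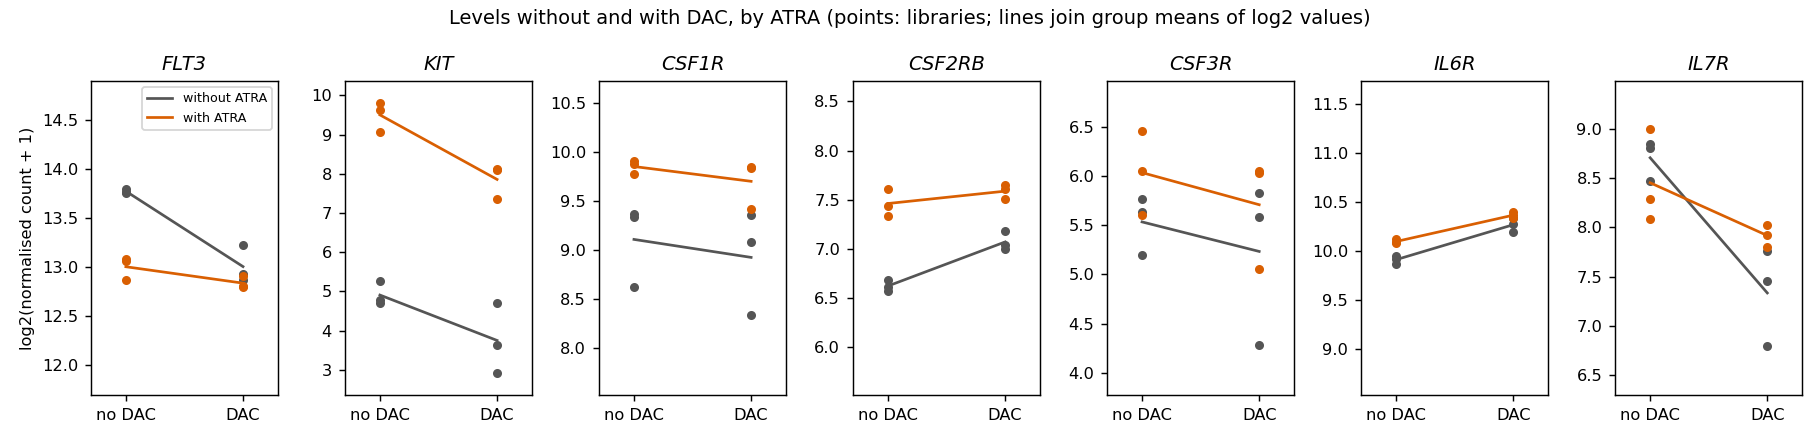
Level of each tested receptor gene as log2(normalised count + 1), without and with DAC, in grey without ATRA and in orange with ATRA; points are libraries (n = 3 a group), lines join group means, and the vertical axes differ in position and, for KIT, in span. The grey FLT3 line falls by 0.77 and the orange one by 0.17, while the orange KIT line lies above the grey one at both ends.

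CSF1R, the receptor of CSF1 and IL-34, lies at chr5:150053291-150113372 and had reads in 1 of 2 listed rows. The untreated libraries held 393, 645 and 662 normalised counts and the DAC libraries 654, 543 and 322. The ATRA libraries held 874, 962 and 937 and the DAC+ATRA libraries 682, 914 and 923. Every library with ATRA was above every library without it, and the groups without ATRA overlapped each other. CSF1R was nevertheless not called in any comparison by limma. The log2 difference was 0.74 with ATRA (95% interval 0.29 to 1.20, limma adjusted p = 0.0107) and 0.59 with DAC+ATRA (0.14 to 1.05, adjusted p = 0.0356). The ATRA difference was called in 9 of 25 alternatives, among them the looser threshold of 0.05, which keeps the adjusted p of 0.0107. It passed 0.01 with edgeR and DESeq2 on the recovered reads. It also passed with limma without untreated replicate 3, DAC replicate 1 or DAC replicate 3. With DAC the difference was -0.18, and without DAC replicate 3, the lowest of the 12 libraries, it was 0.11.

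CSF2RB, the beta chain shared by the receptors of GM-CSF, IL-3 and IL-5, lies at chr22:36913628-36940439. Its untreated libraries held 96.4, 101 and 94.1 normalised counts, and its DAC libraries 144, 130 and 126. Its ATRA libraries held 172, 161 and 194 and its DAC+ATRA libraries 181, 199 and 194. The untreated libraries were the lowest and did not overlap with any treated group, and the DAC libraries lay between them and the groups with ATRA. CSF2RB rose 1.79-fold with ATRA (log2 fold change 0.84, SE 0.15, limma adjusted p = 0.000141) and 1.95-fold with DAC+ATRA (0.97, SE 0.15, limma adjusted p = 3.05e-05). The difference was 0.45 with DAC (95% interval 0.14 to 0.76, limma adjusted p = 0.0439) and 0.52 between DAC+ATRA and DAC (0.21 to 0.82, adjusted p = 0.0116), and neither was called.

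The ligand-binding partners of CSF2RB could not be followed in these counts. CSF2RA, with 20 rows for 10 transcripts, and IL3RA, with 4 rows for 2 transcripts, were listed at 0 in all 12 libraries. Both genes lie in the region that the X and Y chromosomes share, and each of their transcripts is listed more than once. Rows of this kind numbered 138 for 33 symbols, among them the widely expressed SLC25A6 and CD99, and 0 of the 33 symbols had a value above 0 in them. The zeros of CSF2RA and IL3RA are therefore no measure of their expression.

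CSF3R, the G-CSF receptor, lies at chr1:36466043-36483278 and had reads in 1 of 5 listed rows, 17 to 104 per library. Its levels were 53.7, 48.7 and 35.8 normalised counts without treatment, 56.0, 47.0 and 18.5 after DAC, 65.4, 47.6 and 86.9 after ATRA and 32.2, 65.3 and 64.3 after both drugs. All 4 groups overlapped, and CSF3R was not called in any comparison. The row with reads has 3454 exon bases, of which 81 lie in no other listed CSF3R row that GENCODE holds. As shared reads seem to be missing, the counts are lower limits and restrict what could be called. The log2 difference from untreated was -0.30 with DAC (95% interval -1.06 to 0.46), 0.50 with ATRA (-0.26 to 1.26) and 0.18 with DAC+ATRA (-0.59 to 0.94). The lowest library was DAC replicate 3, and without it the DAC difference was 0.17.

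IL6R, the binding chain of the IL-6 receptor, lies at chr1:154405193-154469450. The untreated libraries ranged from 934 to 985 normalised counts, the DAC libraries from 1167 to 1295, the ATRA libraries from 1080 to 1115 and the DAC+ATRA libraries from 1292 to 1347. Each treated group was above the untreated one without overlap. IL6R rose 1.37-fold with DAC+ATRA (log2 fold change 0.45, SE 0.09, limma adjusted p = 0.000631). The difference of 0.36 with DAC was not called (95% interval 0.16 to 0.55, limma adjusted p = 0.0130), nor was that of 0.19 with ATRA (-0.01 to 0.38, adjusted p = 0.131). The DAC difference was called by DESeq2 and by limma with TMM factors.

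IL7R, the alpha chain of the IL-7 receptor, lies at chr5:35852695-35879603. It held 354 to 460 normalised counts without treatment, 109 to 216 after DAC, 270 to 511 after ATRA and 223 to 260 after both. The DAC libraries were the lowest and the ATRA libraries overlapped with the untreated ones. IL7R was 2.60-fold lower with DAC (log2 fold change -1.38, limma adjusted p = 0.000314), a call lost when only these groups were fitted (0.0112). With DAC+ATRA it was 1.73-fold lower (-0.79, limma adjusted p = 0.00879). The latter call was lost in 11 of 25 alternatives, with adjusted p up to 0.0395, among them those without untreated replicate 1 or 2, DAC replicate 2, ATRA replicate 3 or any DAC+ATRA library. Its partner IL2RG, at chrX:71107404-71112108, held 0 to 9 reads per library and was not tested, and another annotated gene overlaps it on the same strand.

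Between the treated groups, DAC+ATRA against DAC called 1 of 7 members higher (KIT) and 0 lower, against 9.04% and 9.74% of all genes. A second member was called there without untreated replicate 1, DAC replicate 1 or DAC+ATRA replicate 1, where CSF1R passed, and without DAC replicate 3, where IL7R passed. DAC+ATRA against ATRA called 0 members higher and 1 lower (KIT), against 6.47% and 5.46% of all genes.

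**Figure D3:**
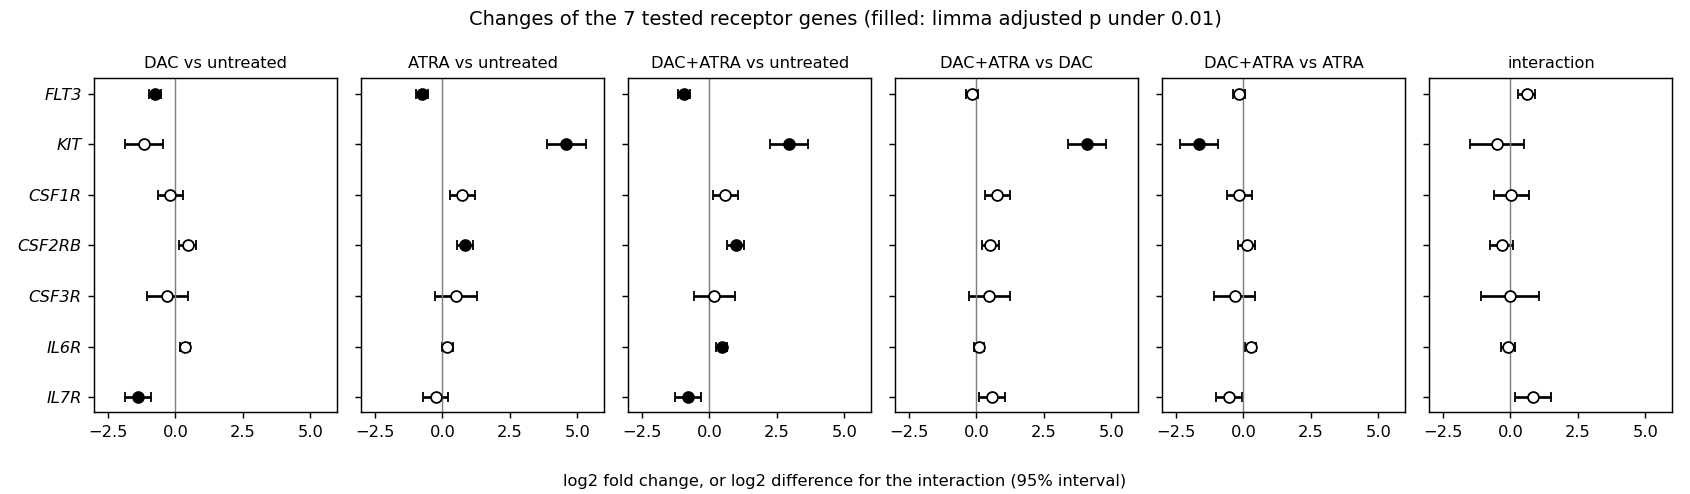
Log2 fold changes of the 7 tested receptor genes in 5 comparisons and the interaction (a log2 difference), with 95% intervals from limma; filled points have an adjusted p under 0.01. KIT spans -1.64 to 4.59 over the comparisons, and the filled FLT3 points lie between -0.94 and -0.77.

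The ligands of these receptors were mostly listed at or near 0 in these counts. Reads shared by transcripts of 1 gene seem to be missing, so these values are lower limits and do not show absence of expression. Of 12 ligand genes, 7 had any reads and 1 passed the filter, and FLT3LG and KITLG, the ligands of FLT3 and KIT, had at most 5 and 4 reads in a library. CSF1, a ligand of CSF1R, had 25.5 ± 7.67 normalised counts (SD, n = 3) without treatment, 7.27 ± 0.80 after DAC, 111 ± 38.4 after ATRA and 1.56 ± 0.63 after both. It rose 4.18-fold with ATRA (limma adjusted p = 0.000227). Its interaction was -3.78 (limma adjusted p = 0.000299), a fitted value that depends on the pseudocount. The 2 groups with DAC were the lowest, and DAC+ATRA, with at most 2 reads in a library, was at least 7.20-fold below untreated and 31.3-fold below ATRA when a floor of 3 reads is set in each library. The fall with DAC (log2 fold change -1.64, adjusted p = 0.00554) was lost in 8 of 25 alternatives, among them those without untreated replicate 1 or 2, DAC replicate 1 or 2 or ATRA replicate 1.

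Other chains of cytokine and growth factor receptors numbered 21, of which 12 were tested. With DAC 0 were called higher and 2 lower, with ATRA 1 and 2, and with DAC+ATRA 1 and 2. Their median log2 fold changes were -0.35, -0.40 and -0.65, beside -0.0041, -0.038 and -0.0039 for all genes tested, of which 4.29%, 12.1% and 14.5% were called higher and 3.67%, 14% and 14.4% lower. IL10RA, the binding chain of the IL-10 receptor, rose from 803 ± 74.4 without treatment to 2144 ± 227 after ATRA and 1224 ± 59.2 after both drugs (n = 3), by 1.42 and 0.61 on the log2 scale (limma adjusted p = 1.26e-08 and 0.000371). With DAC alone IL10RA fell to 562 ± 68.8 (-0.52, limma adjusted p = 0.00526), a call lost in 5 alternatives, among them those without untreated replicate 1 or 2 or DAC replicate 3 and with the replicate block. IL2RA, the alpha chain of the IL-2 receptor, fell from 65.6 ± 12.7 to 15.2 ± 3.19 with DAC and 19.2 ± 5.94 with ATRA (-2.04 and -1.75, limma adjusted p = 0.000269 and 0.000313). With both drugs IL2RA was at 39.4 ± 14.4, not called against untreated (-0.77, limma adjusted p = 0.0701). The interaction of IL2RA was 3.01 (limma adjusted p = 0.000627). It was the 1 of the 12 tested chains called there, beside 0.724% of all genes called positive and 0.874% negative. The ligand list and each list below also held called interactions. The IL2RA rise of 1.26 over DAC alone (limma adjusted p = 0.00672) was lost in 9 alternatives, with adjusted p up to 0.0449. Among them were those without untreated replicate 1 or 2, DAC replicate 1 or 3, or DAC+ATRA replicate 1 or 3. PDGFRB, a tyrosine kinase of the class of KIT and FLT3, fell from 25.02 ± 5.50 to 7.51 ± 5.53 with DAC+ATRA (-1.84, limma adjusted p = 0.00511), and was at 20.4 ± 6.87 in DAC and 16.6 ± 7.69 in ATRA without a call. The PDGFRB call was lost in 6 alternatives, those without any untreated library, without DAC+ATRA replicate 1 or 2, and without the filter on low values.

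Of 11 JAK and STAT genes, 9 were tested, and 0 were called in either direction with DAC. With ATRA and with DAC+ATRA, 2 were called higher and 0 lower. In the same order of treatments the list medians were -0.07, 0.35 and 0.32, and 4.29%, 12.1% and 14.5% of all genes were called higher and 3.67%, 14% and 14.4% lower, with medians of -0.0041, -0.038 and -0.0039. JAK2, the kinase bound to CSF2RB, had 1250 ± 44.6 normalised counts without treatment, 1603 ± 311 after DAC, 3363 ± 251 after ATRA and 2329 ± 56.9 after both (n = 3). It rose 2.68-fold with ATRA (limma adjusted p = 1.17e-08) and 1.86-fold with DAC+ATRA (5.97e-06).

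Of 23 negative regulators of receptor signalling, 21 were tested. With DAC 0 were called higher and 3 lower, with ATRA 5 and 2, and with DAC+ATRA 4 and 2, with medians of -0.20, 0.17 and -0.15. For all genes the shares were 4.29% and 3.67%, 12.1% and 14%, and 14.5% and 14.4%, and the medians -0.0041, -0.038 and -0.0039. DUSP6, a phosphatase that acts on ERK, was at 308 ± 36.5 normalised counts in untreated and 356 ± 35.9 in DAC, and at 1752 ± 319 in ATRA and 1151 ± 22.4 in DAC+ATRA (n = 3). It rose 5.64-fold with ATRA and 3.75-fold with DAC+ATRA (limma adjusted p = 2.40e-11 and 1.55e-09). CISH, an inhibitor induced by STAT5, fell from 94.8 ± 4.92 to 37.8 ± 5.30 with DAC, 33.7 ± 4.45 with ATRA and 38.0 ± 12.3 with DAC+ATRA. Its log2 fold changes were -1.31, -1.47 and -1.35 (limma adjusted p = 0.00162, 0.000149 and 0.000329), and the DAC call was lost without untreated replicate 2 (0.0104) or 3 (0.0101).

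Of 15 target genes of STAT5 and cytokines, which share CISH and SOCS2 with the preceding list, 14 were tested. With DAC 0 were called higher and 6 lower, with ATRA 4 and 4, and with DAC+ATRA 1 and 4, with medians of -0.58, 0.16 and -0.02. All genes had medians of -0.0041, -0.038 and -0.0039, with 4.29% higher and 3.67% lower in DAC, 12.1% and 14% in ATRA, and 14.5% and 14.4% in DAC+ATRA. OSM, which encodes the cytokine oncostatin M, fell from 565 ± 27.3 normalised counts to 125 ± 34.6 with DAC, 82.7 ± 31.8 with ATRA and 19.4 ± 12.7 with DAC+ATRA (n = 3). Its log2 fold changes were -2.21, -2.84 and -5.02 (limma adjusted p = 0.000540, 8.17e-06 and 4.52e-09). EGR1, an immediate early transcription factor, rose 3.01-fold with ATRA (limma adjusted p = 7.72e-06), from 229 ± 21.5 to 700 ± 154, and was at 227 ± 54.9 after both drugs without a call. EGR1 fell to 112 ± 31.6 with DAC (-1.06, limma adjusted p = 0.00214), a call lost without untreated replicate 3 (0.0131) and with only the groups compared (0.0251). PIM1, a serine/threonine kinase, was at 10919 ± 1009 in untreated and 16602 ± 423 in DAC+ATRA and rose 1.52-fold (limma adjusted p = 0.000169). PIM1 also rose with ATRA alone, to 17577 ± 1055 (0.69, limma adjusted p = 4.56e-05), and fell with DAC alone, to 6356 ± 811 (-0.78, adjusted p = 4.72e-05).

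Of 17 transcription factors known to bind receptor genes, 16 were tested. With DAC 1 was called higher and 3 lower, with ATRA 4 and 7, and with DAC+ATRA 2 and 5, with medians of -0.05, -0.28 and -0.43. The shares of all genes called were 4.29% higher and 3.67% lower, 12.1% and 14%, and 14.5% and 14.4% in those 3 comparisons, with medians of -0.0041, -0.038 and -0.0039. GATA2, a progenitor factor that binds regulatory elements of KIT, had 579 ± 111 normalised counts without treatment, 452 ± 113 after DAC, 17.8 ± 9.41 after ATRA and 32.0 ± 1.51 after both (n = 3). It was 34.0-fold lower with ATRA and 17.4-fold lower with DAC+ATRA (limma adjusted p = 9.65e-11 and 2.46e-09), in the groups in which KIT was higher. A link between the levels of GATA2 and KIT was not tested. CEBPE, a factor of granulocytic maturation, rose 5.15-fold with DAC, from 315 ± 29.3 to 1627 ± 174, and 2.56-fold with DAC+ATRA, to 806 ± 21.2 (limma adjusted p = 7.97e-11 and 2.30e-08). With ATRA alone CEBPE was 3.23-fold lower, at 96.5 ± 2.74 (-1.69, limma adjusted p = 8.51e-10). EGR2, a zinc finger factor of the EGR family, rose from 8.54 ± 0.69 to 94.5 ± 25.7 with ATRA (log2 fold change 3.29, limma adjusted p = 1.55e-05). It was at 3.42 ± 0.64 after both drugs without a call. EGR2 reached 10 normalised counts in ATRA libraries only, so it passed the filter through the group in which it was high. Its ATRA p-value is thus no separate support for the rise. In DAC libraries EGR2 had at most 2 reads and was at least 2.17-fold lower than untreated (limma adjusted p = 0.00239), a call lost in 5 alternatives, among them those without untreated replicate 1 or 2 or DAC replicate 2.

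**Figure D4:**
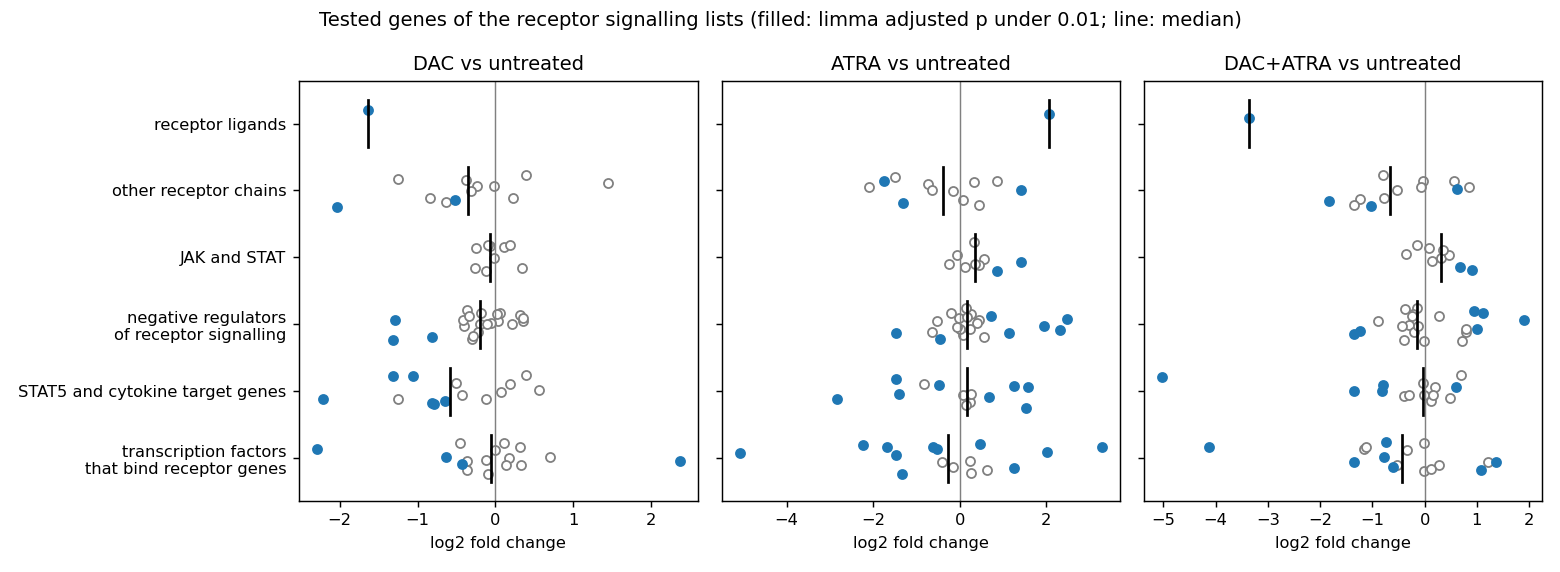
Log2 fold change of each tested gene in 6 gene lists of receptor signalling, for each treatment against untreated; filled points have a limma adjusted p under 0.01, vertical lines are list medians, and vertical scatter within a list has no meaning. CSF1 in DAC+ATRA and EGR2 in DAC had at most 2 reads a library, so their fitted values depend on the pseudocount of 1.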

How the data were processed

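Strand-specific, ribosomal RNA-depleted RNA-seq libraries of MOLM-13 cells were analysed. The submitters' processing notes name FastQC, STAR, HTSeq, DESeq2 and the build hg38, with no versions. The deposited signal is a table of 100502 transcript rows in which the authors divided read counts by a size factor per library. Every value was a whole multiple of 1 step per library (100% within 0.05 reads), so reads were recovered. Reads shared by transcripts listed for 1 gene seem to be missing, so levels are lower limits and were not compared between genes, and a shift in transcript use could change a gene's level. The CTRL columns were read as untreated. Rows were summed per symbol, and biotypes and coordinates came from GENCODE release 44, which matched 88.9% of rows; the release used for counting is not given in the sources used here.

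As the values are not whole counts, limma 3.58.1 was the main test (lmFit, eBayes with trend, R 4.3.3) on log2(normalised count + 1), all 12 libraries in 1 fit with no covariate, for 10642 protein-coding genes that reached 10 normalised counts in 3 or more libraries, with Benjamini-Hochberg adjustment over all of them. The script was tested on simulated data. On the recovered reads, edgeR 4.0.16 called 953, 2967 and 3239 genes (DAC, ATRA and the combination against untreated), and limma called 848, 2772 and 3077. Other alternatives were DESeq2 1.42.0, total-count and TMM scaling, pseudocounts of 0.1 and 5, no filter or one of 50, all symbols, only the groups compared, a replicate block, an adjusted p under 0.05, the highest transcript row only, and each library left out. The members, lists and alternatives were chosen with earlier results of these data known. Named genes were all members and, from each of 6 lists, the called gene with the largest rise and the largest fall in each treatment against untreated. The interactions of IL2RA and CSF1 were given outside that rule. No library pair of a group agreed within sampling noise. Counting error at this depth is largest for KIT in DAC, IL2RG and the ligands.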

Additional observations from a re-analysis of the deposited data

How the results depend on the processing

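Of 1043 values of single members under 25 alternatives (24 for the interaction), 978 kept their direction and side of the threshold, 15 lost a call, 34 gained one and 16 changed direction, of which 0 were called. Some alternatives leave the log2 difference as it is and can move only the adjusted p, so direction was fixed in advance there. These are the looser threshold, the changed filters, all symbols, the replicate block, only the groups compared, and leaving out a library of a group not compared. Of 848 values of named list genes, 811 kept direction and side and 37 lost a call. These genes were picked for their large called changes in the same fit. Apart from added IL2RA values, only called comparisons entered, so the choice favours kept calls and the tally is no separate support. The number of members called stayed within 1.5 times that reported under every alternative for ATRA (3 to 4, reported 3) and DAC+ATRA (4 to 6, reported 5) against untreated. For DAC it was 2, and 1 with only the groups compared, 5 at an adjusted p under 0.05, 3 with DESeq2, TMM scaling, a filter of 50 or the replicate block, and 2 to 3 when a library was left out. For DAC+ATRA against DAC it was 1, and 3 with DESeq2 or at 0.05, 2 with a pseudocount of 5 or a filter of 50, and 1 to 2 when a library was left out. For DAC+ATRA against ATRA it was 1, and 2 at 0.05 and 0 to 1 when a library was left out. For the interaction it was 0, and 1 with DESeq2 or at 0.05 and 0 to 1 when a library was left out. Calls over all genes also differed by setting. With DAC they numbered 848, and 371 with only the groups compared, 1638 at 0.05 and 1223 with DESeq2. They were 882 with TMM scaling, 742 with the replicate block and 826 of 7615 with a filter of 50. For DAC+ATRA against DAC they were 1998, and 2232 with DESeq2, 3055 at 0.05 and 2065 with a pseudocount of 5. For the interaction they were 170, and 338 with DESeq2 and 386 at 0.05. The cause of the moves in member counts was not tested.

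Log2 differences that changed direction were all uncalled. They were those of CSF1R with DAC (-0.43 to 0.11 when a library was left out), CSF3R with DAC (-0.60 to 0.17), CSF3R in DAC+ATRA against ATRA (-0.54 to 0.0017), the CSF1R interaction (-0.26 to 0.28, and -0.0040 with DESeq2) and the CSF3R interaction (-0.50 to 0.30, and 0.027 with total-count scaling). Scaling moved the median of all genes by at most 0.054 (log2).

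Libraries with the same number did not deviate together (correlations of deviations from the group means -0.263 to 0.114), so the numbers were not taken as pairs. With a replicate block, 3 members were called with DAC, where KIT was added (adjusted p = 0.00926), 3 with ATRA, 4 with DAC+ATRA, where IL7R was lost, 1 in DAC+ATRA against DAC, 1 against ATRA and 0 in the interaction. Depth limits KIT in DAC (6 to 16 reads), IL2RG (0 to 9 reads) and the ligands, for which changes of these sizes were not detectable or have wide errors.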
